A study of Caenorhabditis elegans with 2 samples.

Results

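The genes described here, 8 of the 19985 protein-coding genes of the C. elegans annotation, handle signal peptides: srpa-19, srpa-54 and srpa-72 of the signal recognition particle (SRP), spcs-1, spcs-2, spcs-3 and sec-11 of the signal peptidase complex, and imp-2, a signal peptide peptidase. They were chosen by name, for their role in this pathway, with earlier results of these data known. All but srpa-19 and srpa-54 matched a symbol of the Ensembl annotation (WBcel235), and these were tied to F37F2.2 and F21D5.7 through the protein descriptions of RefSeq. The measurement was chromatin immunoprecipitation with sequencing of LET-607 in whole hermaphrodites of strain YL529, a transgenic line that stably carries LET-607 with a GFP-FLAG tag at its C-terminus. The worms were young adults, 67 h after synchronization as starved L1 larvae that followed bleaching, and an antibody against GFP was used on sonicated chromatin. There was 1 group of 2 biological replicates, both from this line, and no untagged or untreated group was analysed here. The promoter of the transgene and the state of the untagged let-607 gene are not stated in the labels. Since whole animals were used, the cells that held the binding cannot be told apart.

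Secreted and membrane proteins carry a signal peptide that SRP, a particle of several proteins and an RNA, recognizes as it leaves the ribosome, after which SRP brings the ribosome to its receptor and to the translocon, the protein channel of the endoplasmic reticulum (ER) membrane. There the signal peptidase complex cuts the signal peptide off, with a catalytic subunit and small accessory subunits, and signal peptide peptidases of the presenilin-like aspartyl protease family cut the remnants within the membrane. LET-607 is the C. elegans member of the CREB3 family, bZIP transcription factors made as ER membrane proteins that are known in mammals to raise secretory capacity. In C. elegans many genes lie close behind a gene on the same strand and are transcribed with it from a shared upstream promoter as an operon, so the promoter of a gene need not lie at its own 5′ end.

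The sequences under 4 of the 5 peaks that lay in promoter windows and on the authors' final list are shown, so that the searched motifs can be seen in place. The other one, at srpa-19, is not shown, and it held none of the searched motifs within 100 bp of its summit. They are the 60 bases to either side of the pooled summit, 121 bases in all, taken from the RefSeq sequence of WBcel235 (ce11) and written 5′ to 3′ on the strand of the gene. Capitals mark CACGTG, the hexamer GCAAAC, and TGACGT where it stands on the opposite strand (read here as ACGTCA). The positions are chrIV:8744068-8744188 (minus strand) for srpa-54, chrII:2787290-2787410 (plus) for srpa-72, chrIII:12874835-12874955 (plus) for spcs-2 and chrIV:11119160-11119280 (minus) for imp-2.
srpa-54: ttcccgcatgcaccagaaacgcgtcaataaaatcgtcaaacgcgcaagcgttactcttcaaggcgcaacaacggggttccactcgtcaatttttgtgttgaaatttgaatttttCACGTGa
srpa-72: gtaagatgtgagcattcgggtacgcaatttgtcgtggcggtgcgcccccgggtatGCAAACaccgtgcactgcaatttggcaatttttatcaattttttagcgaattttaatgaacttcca
spcs-2: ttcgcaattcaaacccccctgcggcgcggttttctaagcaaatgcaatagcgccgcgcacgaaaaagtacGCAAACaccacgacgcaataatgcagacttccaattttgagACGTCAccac
imp-2: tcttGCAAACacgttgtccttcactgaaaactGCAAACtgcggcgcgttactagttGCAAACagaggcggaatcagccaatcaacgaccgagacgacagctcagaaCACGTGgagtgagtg

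The GC share of these stretches was 44.6% at srpa-54, 44.6% at srpa-72, 50.4% at spcs-2 and 51.2% at imp-2. Sequences known from CREB3-family and other bZIP factors were looked for on both strands within 50 bp of the 5 summits of the final list that lay in members' windows, counting a match only where all its bases fell in that range. The hexamer TGACGT was at none of the 5, and neither was the hexamer GACGTG. The longer TGACGTGG and TGACGTCA, which both contain TGACGT, were at none of them either. Over all 2349 nuclear summits of that list, TGACGT was within 50 bp of 8.30%, against 3.77% of 19973 windows of the same length centred 150 bp upstream of protein-coding genes. The corresponding shares were 7.11% and 2.11% for GACGTG, 1.92% and 0.240% for TGACGTGG, and 0.979% and 0.626% for TGACGTCA. A member without a match was therefore in the position of most peaks of the list. Within 100 bp, spcs-2 had TGACGT on the opposite strand, starting 51 bp downstream of its summit, where the shares were 13.1% of summits and 7.28% of promoter windows.

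A pair of hexamers was added after the data were seen. CACGTG, a palindrome known as an E-box and found in many promoters, lay wholly within 50 bp of none of the 5 summits. It started 46 bp downstream of the imp-2 summit, so that it ran past 50 bp, and 54 bp downstream of the srpa-54 summit. It lay wholly within 100 bp of 12.9% of all nuclear summits of the list and of 3.98% of promoter windows. GCAAAC was picked because it recurred in the printed sequences, so its presence in them is no result. It spanned the summit of srpa-72, started 10 bp downstream of the summit of spcs-2, and at imp-2 had copies 56, 28 and 4 bp upstream of the summit by their first base. Its share within 50 bp was 9.07% of all nuclear summits of the list and 6.09% of promoter windows. TGCAGT, a sequence searched as a control, was within 50 bp of the summits of srpa-72 and imp-2 (6.56% of summits, 3.04% of promoter windows). This control, like TGACGT (8.30% and 3.77%), was thus more frequent at summits than in promoter windows. A higher share at summits was therefore not particular to the bZIP sequences. These matches are descriptions of letters and say nothing about which factor binds there.

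LET-607 had a reproducible peak at 5 of the 8 genes: all 3 SRP genes, 1 of the 4 signal peptidase genes (spcs-2) and imp-2. A gene was called bound where a summit of the authors' final list fell in its promoter window, from 1000 bp before to 200 bp after its annotated 5′ end. That list (IDR, thresholded on reproducibility between replicates) held 2372 peaks, and 7.76% of all protein-coding genes were bound by the same rule. The count was not tested against this share, because the 8 genes were chosen with earlier results of these data known. The relaxed lists, which also hold weak peaks, had 26789 peaks for the pooled data, 26463 for replicate 1 and 22592 for replicate 2. In the pooled relaxed list all 8 genes had a summit in the window, where 36.4% of protein-coding genes did. The count was 7 in replicate 1 (35.8% of all genes), with spcs-3 missing, and 8 in replicate 2 (32.8%). The IDR list is the 2372 strongest peaks of the pooled list, so the step from 8 to 5 genes is a threshold on signal, at 78.2. Signal is the authors' value per peak on no stated scale, and values and ranks below are compared within a list only. Read counts were not analysed here, so the depth behind a peak is unknown and no test over the 2 replicates was made.

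**Figure D1:**
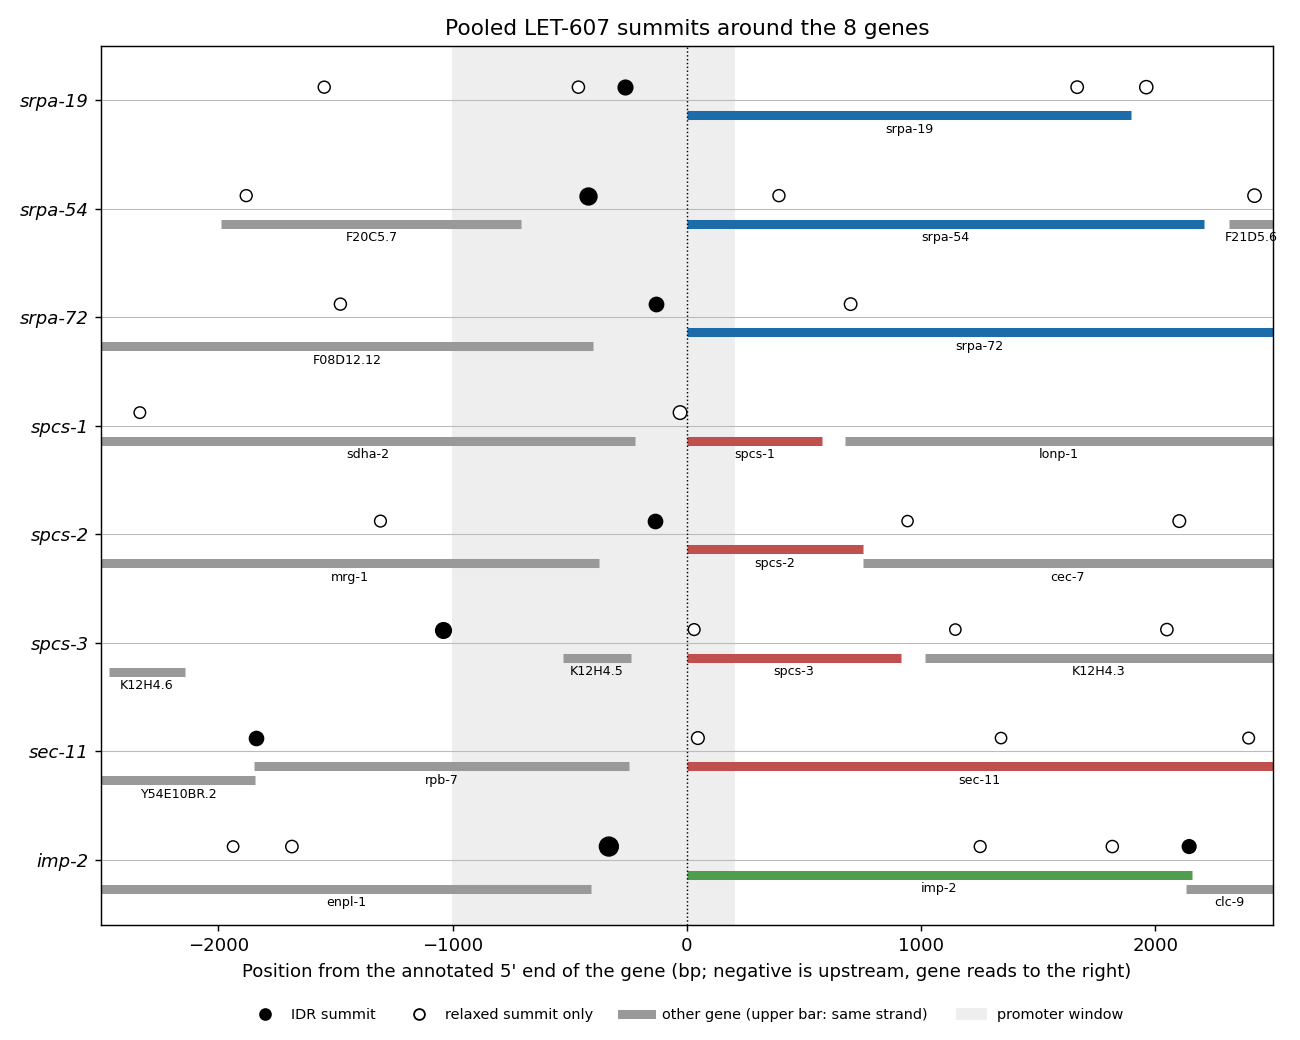
Pooled summits by distance from the annotated 5′ end of each gene, in bp, with the gene reading to the right; larger circles have a higher signal, filled circles are on the IDR list and open circles on the relaxed list only. The filled circles of srpa-19, srpa-54, srpa-72, spcs-2 and imp-2 lie in the grey promoter window, while those nearest to spcs-3 and sec-11 lie 1039 and 1838 bp upstream, beyond K12H4.5 for spcs-3 and within rpb-7 for sec-11.

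Among the SRP genes, srpa-54 had by far the strongest peak. srpa-54 encodes the GTPase subunit that holds the signal peptide and meets the SRP receptor, and the gene lies at chromosome IV 8741495 to 8743704 on the minus strand (ce11). Its peak had a signal of 834 and rank 73 of the pooled list, 53 among peaks on nuclear chromosomes. In replicate 1 the signal was 431 at rank 74, and in replicate 2 it was 407 at rank 69. The 3 lists placed the summit 424, 425 and 416 bp upstream of the 5′ end, in intergenic sequence, and the replicate summits were 9 bp apart. Rank and place were thus nearly the same in both replicates. No other protein-coding gene had this summit in its window, although F20C5.7 ends 706 bp upstream on the same strand. In the pooled list the next stronger peak with a gene in reach (signal 839) was that of rib-2 and tbb-1, and the next weaker (788) that of rpl-15 and K11H12.8.

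srpa-19 and srpa-72 had peaks of intermediate strength, both well above the IDR limit. srpa-19 encodes the subunit that folds the SRP RNA for the GTPase subunit, and it lies at chromosome I 1442048 to 1443944 on the minus strand. Its summit had a signal of 161 at rank 752 in the pooled list, 81.8 at rank 863 in replicate 1 and 79.2 at rank 688 in replicate 2. It lay 262 bp upstream in the pooled list and in replicate 2, and 204 bp upstream in replicate 1, in intergenic sequence with no other gene in reach. A weaker pooled summit (signal 31.8, rank 10657) stood 463 bp upstream and was not on the IDR list. The peaks next to it in rank belonged to cnk-1 (signal 161) and to rpl-43 and Y48B6A.1 (161), so neighbours in this range were hardly separated.

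srpa-72 encodes a subunit that binds the SRP RNA, and it lies at chromosome II 2787481 to 2793943 on the plus strand. The signal of its peak was 126 at rank 1126 in the pooled list, 68.3 at rank 1206 in replicate 1 and 58.8 at rank 1175 in replicate 2. The summits were 131, 155 and 128 bp upstream in these lists. The ranks of the replicates differed by a factor of 1.03, the smallest factor among the members. The summit was shared: F08D12.12, a gene for a RING-type domain protein, starts 400 bp away on the opposite strand, and the summit was 269 bp upstream of its 5′ end. Which of the divergent genes the binding belongs to cannot be told apart. The peaks nearest in rank with a gene in reach were those of pabp-2 and C17E4.6 (126) and of F42A10.7 (126).

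**Figure D2:**
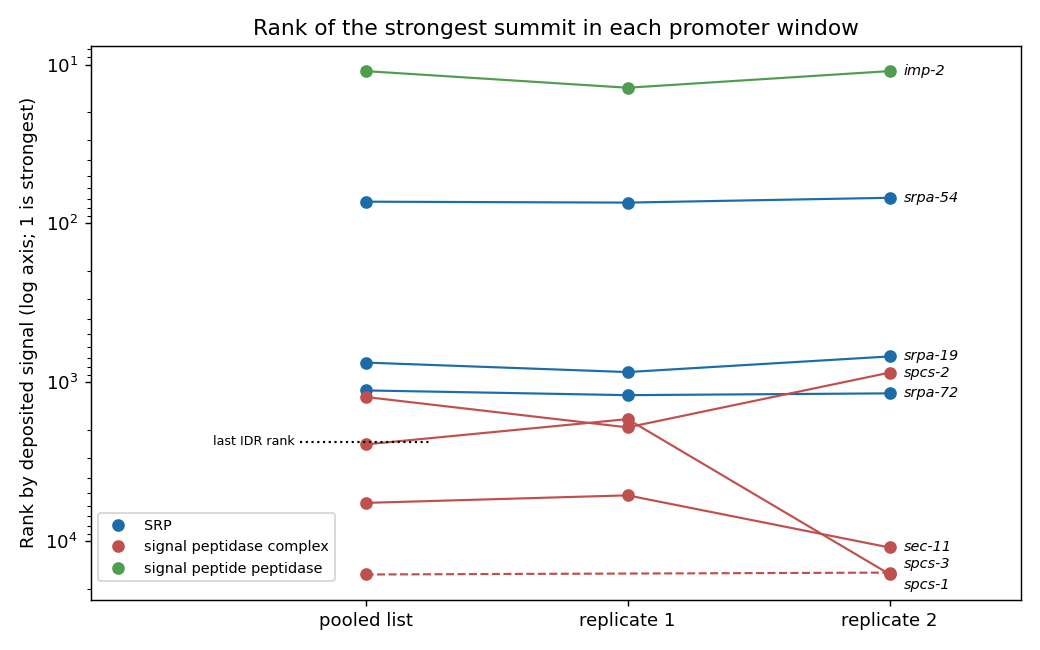
Rank of the strongest summit in each gene's promoter window in the pooled list and in each replicate's list, on a reversed log axis where 1 is the strongest peak; the dotted mark is the last IDR rank, 2372, which applies to the pooled list. The lines of imp-2 and the 3 SRP genes are nearly flat, whereas spcs-1 goes from rank 1707 in replicate 1 to 16153 in replicate 2; the dashed line of spcs-3 passes over replicate 1, which had no summit in its window.

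Of the 4 signal peptidase genes only spcs-2 was bound, and the other 3 had summits of the relaxed lists at their 5′ ends. spcs-2 encodes an accessory subunit of the complex and lies at chromosome III 12875031 to 12875783 on the plus strand. Its peak had a signal of 119 at rank 1238 in the pooled list, 51.3 at rank 1924 in replicate 1 and 69.2 at rank 870 in replicate 2. The summits were 136, 56 and 138 bp upstream, so the replicates placed it 82 bp apart and gave it ranks that differed by a factor of 2.21. This was the least even of the 5 bound members. It was also the bound member that lost its call when only IDR peaks above that list's median signal (122) were kept. The summit lay 239 bp upstream of mrg-1, which starts 375 bp away on the opposite strand and encodes a chromodomain protein known for its role in the germ line, so here too the binding cannot be assigned to a single gene. The peaks next to it in rank with a gene in reach were those of C32D5.11 (119) and mma-1 (119).

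spcs-1 stood just outside the IDR list. It encodes a small accessory subunit and lies at chromosome I 10682472 to 10683048 on the minus strand. In the pooled list its summit had a signal of 76.1 at rank 2462, against the IDR limit of 78.2 at rank 2372, and lay 29 bp upstream of the 5′ end. In replicate 1 the signal was 55.2 at rank 1707, 74 bp upstream, and in replicate 2 it was 15.4 at rank 16153, 29 bp upstream. In replicate 1 6.45% of the list was stronger, and in replicate 2 it was 71.5%. The peak was thus strong in 1 replicate and weak in the other, with ranks that differed by a factor of 9.46, the largest of the 7 members that had a summit in both. When the 2372 strongest peaks of replicate 1 took the place of the IDR list, spcs-1 was called, and with those of replicate 2 it was not. The nearest IDR summit was 40547 bp away.

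sec-11 and spcs-3 had only weak summits at their 5′ ends. sec-11 encodes the catalytic subunit, a serine protease, and lies at chromosome I 3028325 to 3031092 on the minus strand. Its summit in the pooled list had a signal of 43.6 at rank 5749 and lay 47 bp downstream of the 5′ end, in coding exon. It had a signal of 28.2 at rank 5152 in replicate 1, 7 bp upstream, and of 18.5 at rank 10974 in replicate 2, 81 bp downstream in an intron. spcs-3, whose product is an accessory subunit needed in yeast for cleavage, lies at chromosome III 8045017 to 8045931 on the plus strand. Its pooled summit, 31 bp downstream in coding exon, had a signal of 25.3 at rank 16229, below the pooled list's median of 28.1. In replicate 2 it had 15.6 at rank 15790 at the same place, and replicate 1 had no summit in the window.

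Both genes had an IDR summit further upstream, in the promoter window of a neighbour on the same strand. For spcs-3 it lay 1039 bp upstream of the 5′ end, 39 bp outside the window, with a signal of 332 at rank 212, stronger than at spcs-2 and at any SRP member except srpa-54. The replicates had it at rank 171 (signal 206) and rank 303 (123). This summit was in the window of K12H4.5, which is on the same strand and ends 236 bp before spcs-3. For sec-11 the nearest IDR summit was 1838 bp upstream, with a signal of 114 at rank 1321, rank 1106 (71.8) in replicate 1 and rank 2224 (40.3) in replicate 2. It lay in a coding exon of rpb-7, an RNA polymerase II subunit gene on the same strand that ends 245 bp before sec-11, and was also in the window of the divergent gene Y54E10BR.2. spcs-1 has such a neighbour too, sdha-2, which ends 221 bp before it, but sdha-2 was not bound.

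The 3 members that were not bound were thus the 3 of the 8 with a gene on the same strand ending within 300 bp upstream. Over all protein-coding genes, 2526 of 19985 (12.6%) had such a neighbour. Of these 6.41% were bound, against 7.95% of the others. The split among the members was not tested. It rests on the IDR limit of 78.2, which spcs-1 narrowly missed at 76.1. With the 2372 strongest peaks of replicate 1 it does not hold, since spcs-1 was called there. Among other genes of the pathway, R186.3, trap-1 and imp-3 have a same-strand neighbour this close, 97, 260 and 233 bp away, and were bound. F25G6.8 has one 99 bp away and was not. The strongest pooled summit in the window lay 173 bp upstream at trap-1 and 41 bp at imp-3, but 790 bp at R186.3. R186.3 lost its call with a window from 500 bp upstream and with the nearest 5′ end only. The upstream neighbours of R186.3 and imp-3 were themselves bound, and that of trap-1 was not. A further count also took a summit in the window of the close upstream neighbour. It went on through each next same-strand gene ending within 300 bp upstream. With it spcs-3 and sec-11 were added and 7 of the 8 members were called, against 9.65% of all genes. This count was added after the data were seen. Whether these gene pairs are transcribed as operons was not tested.

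imp-2 had the strongest peak of the 8 genes. It encodes a signal peptide peptidase, an intramembrane aspartyl protease, and lies at chromosome IV 11116732 to 11118887 on the minus strand. The signal was 4456 at rank 11 in the pooled list, 2370 at rank 14 in replicate 1 and 2105 at rank 11 in replicate 2. Among peaks on nuclear chromosomes it ranked 8 in each of the 3 lists. The summits lay 333, 326 and 333 bp upstream of its 5′ end, 7 bp apart between the replicates. The peak just above it was that of trap-1, a translocon-associated protein subunit gene (4643), and the next weaker with a gene in reach was that of bbs-9 and C48B6.10 (3018).

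The peak at imp-2 stood nearer to another gene of the ER. enpl-1, which encodes endoplasmin, the ER chaperone of the heat shock protein 90 family, starts 411 bp away on the opposite strand, and the summit was only 78 bp upstream of its 5′ end. With each summit given to the nearest 5′ end alone, imp-2 lost its call and 4 of the 8 members were bound, beside 5.95% of all protein-coding genes. Which of the pair the binding belongs to cannot be told apart from these files. A second IDR summit, 2144 bp downstream of the 5′ end of imp-2 and close to its 3′ end, had a signal of 82.2 at rank 2209, near the IDR limit.

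**Figure D3:**
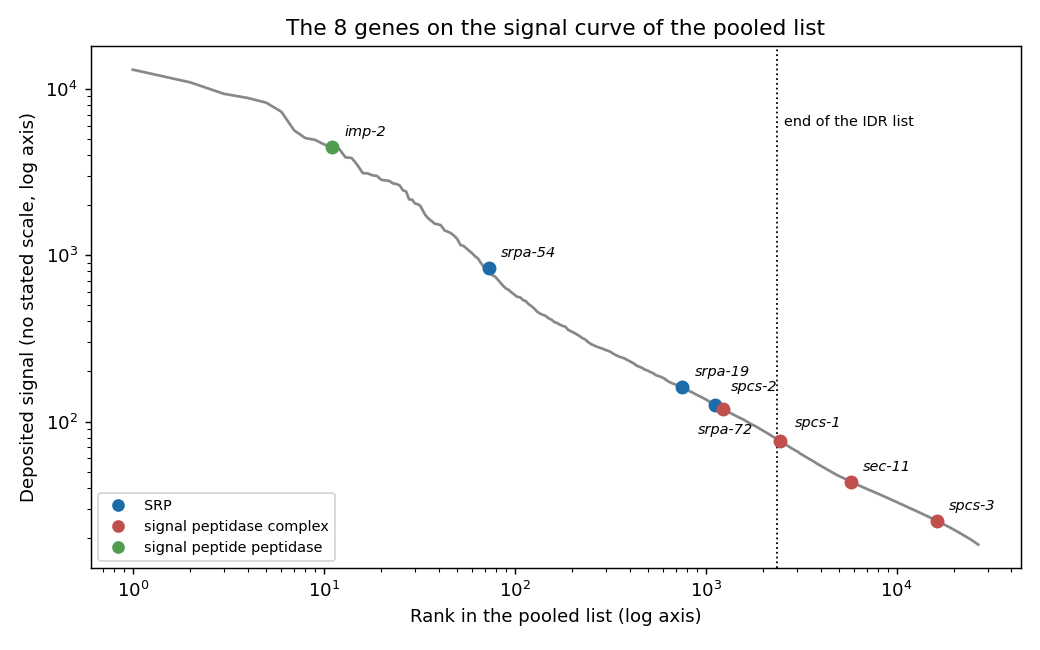
Signal against rank for the pooled list, both on log axes, with the strongest summit in the promoter window of each of the 8 genes marked on the curve. The signals run from 25.3 at spcs-3 to 4456 at imp-2, and spcs-1, at 76.1, lies just to the right of the dotted line that ends the IDR list.

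The 5 bound members had signals of 119 to 4456 and ranks of 11 to 1238 in the pooled list. Their median rank in the pooled list was 752, against 1076.5 for the strongest summits of all 1550 bound genes. Their summits had a median position 262 bp upstream of the 5′ end, against 242 bp for all bound genes. All 5 summits were in intergenic sequence. Of the 5, 3 shared their summit with another gene, which was divergent each time. Of all bound genes 46.6% shared a summit with another gene, a share that was not limited to divergent genes. In the pooled list the signals ran from 126 to 834 for the 3 SRP members and from 25.3 to 119 for the 4 signal peptidase members. This order holds for the SRP genes chosen here and not for the complex, since ZK512.4 (78.5) and F25G6.8 (36.1), which RefSeq also describes as SRP subunits, lay below spcs-2. In replicate 2 the order of spcs-2 and srpa-72 was the other way, with spcs-2 at 69.2 and srpa-72 at 58.8.

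Of 16 other genes of the pathway, 12 were bound, beside the 7.76% of all protein-coding genes. These too were chosen with earlier results of these data known, and no test was made. Among 4 listed for SRP and its receptor, 3 were bound. The summit of F38A1.8, which RefSeq describes as an SRP GTPase-domain protein, had a signal of 1328 at rank 48. ZK512.4, for a small SRP subunit, had 78.5 at rank 2363, the weak end of the IDR list, and F25G6.8, for another small subunit, had 36.1 at rank 8317 and was not bound. R186.3 (419, rank 148) was listed as a receptor subunit, but RefSeq describes it as an ADP-ribosylation factor-related protein, so its role is uncertain.

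The translocon genes had the strongest peaks of the pathway, with 8 of 10 bound. The channel's small subunit genes sec-61.G (signal 8248, rank 5) and sec-61.B (7275, rank 6, shared with trap-3) and the translocon-associated genes trap-2 (9329, rank 3) and trap-1 (4643, rank 10) ranked above imp-2. trap-4 (1680, rank 35) lay between imp-2 and srpa-54, dnj-29 (742, rank 79) just below srpa-54, and sec-62 (243, rank 361) between srpa-54 and srpa-19. sec-61.A and tram-1 were not bound by the rule. For sec-61.A the pooled summit in the window had a signal of 47.1. The nearest summit to its 5′ end in replicate 2 had 2376 at rank 8 of that list. It lay 258 bp downstream and so just past the window. From the IDR list, sec-61.A was called with the 5′ end of any transcript and with peak overlap. tram-1 was called with peak overlap and with a window from 2000 bp upstream. Of the other intramembrane proteases, imp-3 was bound (90.6, rank 1922) and imp-1 had no pooled summit in its window. Every signal peptidase member therefore ranked below each of the 8 bound translocon genes in the pooled list.

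**Figure D4:**
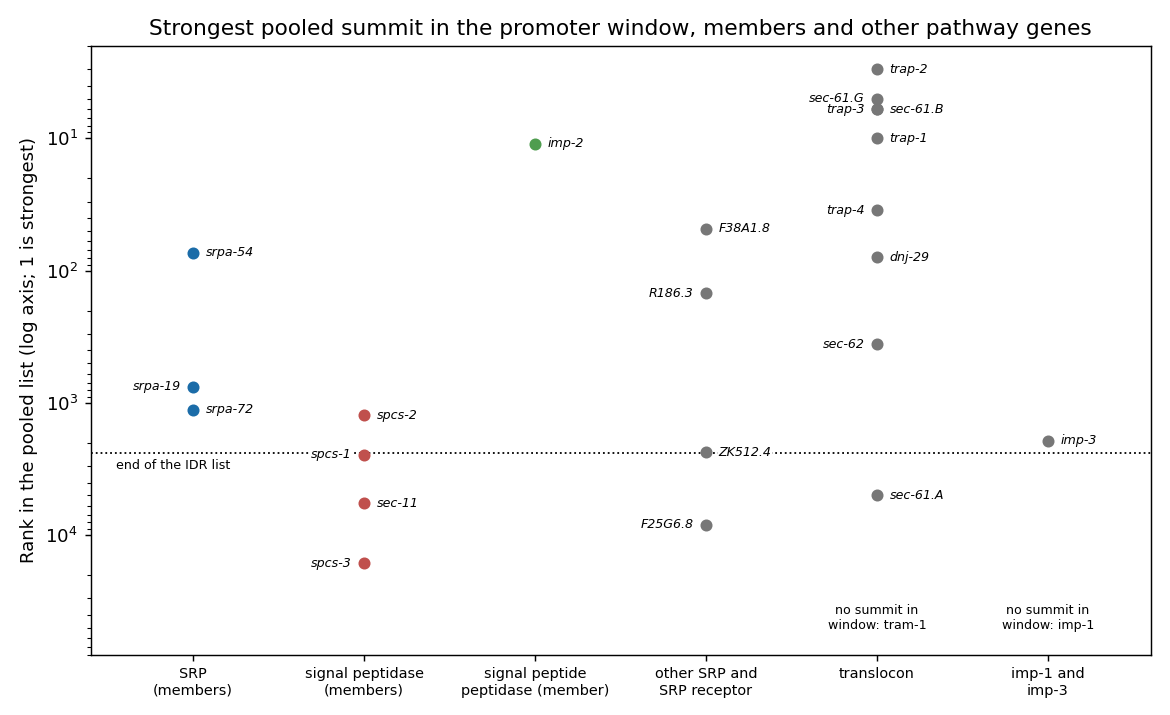
Rank of the strongest pooled summit in the promoter window, on a reversed log axis, for the 8 genes (coloured) and 16 other genes of the pathway (grey), by group; tram-1 and imp-1, with no pooled summit in the window, are named at the bottom without a point. Points above the dotted line at rank 2372 are on the IDR list: 5 of the 8 genes and 12 of the 16 others; the signal peptidase genes lie between ranks 1238 and 16229.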

How the data were processed

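LET-607-GFP ChIP-seq from 2 biological replicates of 1 group was used as deposited peak lists. Replicate numbers came from the labels, which also name ce10 and ce11. The deposited descriptions state that a relaxed list was made per replicate and for the pooled data, against a control, and that the authors' IDR list kept reproducible peaks. Neither aligner nor peak caller was named there (not given in the sources used here). Each peak's deposited signal (median 28.1 in the pooled list) has no stated scale and was used only within a list. The deposited −log10 q-value sat at its maximum for 2252 of 2372 IDR peaks, so it ranked nothing. Depth is unknown. The 4 ce11 lists were used, and the 4 ce10 lists were not.

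Summits were placed relative to the 5′ ends of 19985 protein-coding genes (Ensembl release 115, WBcel235). A gene was bound if a summit lay from 1000 bp upstream to 200 bp downstream. Gene names were also matched through RefSeq, and all coordinates are 1-based. Motifs were searched on both strands of the RefSeq sequence. The members and lists were chosen with earlier results of these data known. Named were all members, genes sharing their summits, 16 other pathway genes, and genes at the next stronger and weaker IDR peak. A further gene of the pathway is not reported here. Alternatives were other windows, other peak lists, leaving out a replicate (taking the top 2372 peaks of the remaining one), any transcript, the nearest gene, peak overlap, and motif windows of 25 and 100 bp. The window assignment was tested on simulated data. No test over samples was made. Calculations used Python 3.11.15, numpy 2.4.6, pandas 2.3.3, Biopython 1.88 and matplotlib 3.10.9.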

Additional observations from a re-analysis of the deposited data

How the results depend on the processing

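The count of 5 bound members among 8 stayed between 4 and 7 under other windows, the nearest 5′ end only, any transcript, peak overlap, IDR peaks above the median signal, replicate 1's relaxed list, and close upstream neighbours. The share of all protein-coding genes was 6.24% with a window from 500 bp upstream, 5.95% with the nearest 5′ end only and 8.47% with any transcript. It was 4.25% with IDR peaks above the median signal, 35.8% with replicate 1's relaxed list and 9.65% with close upstream neighbours. The count of members rose to 8 with the pooled relaxed list and to 8 with the relaxed list of replicate 2. These lists also hold weak peaks and reached 36.4% and 32.8% of all protein-coding genes. The count was 3 of 6 without the 2 members tied through RefSeq products (7.76% of all protein-coding genes by the main rule). It was 5 with replicate 1 left out (7.44% of all genes) and 6 with replicate 2 left out (7.79%), which added spcs-1. A window from 2000 bp upstream added spcs-3 and sec-11, giving 7 (10.1% of all genes), and peak overlap added spcs-3, giving 6 (8.48%). For the 16 other pathway genes the count of 12 ranged from 10 to 14. It was 10 with the nearest 5′ end only (5.95% of all genes) or IDR peaks above the median signal (4.25%). It was 14 with peak overlap (8.48%), the pooled relaxed list (36.4%) or the relaxed list of replicate 2 (32.8%). No paired analysis was possible because there was 1 group. With 2 replicates and no read counts, the strength of weak peaks such as those at spcs-1, spcs-3 and sec-11 has no error estimate.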

Other observations

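The RNA of SRP is made from its own genes, and these were looked up after the data were seen. The annotation holds 5 such non-coding genes of 298 to 299 bp. Within the gene or 100 bp to either side, 3 of the 5 had an IDR summit: srpr-2.1 (signal 139, rank 959), srpr-1.2 (115, rank 1310) and srpr-1.1 (96.6, rank 1728). srpr-1.1 ranked 4444 in replicate 1 and 982 in replicate 2. At srpr-1.2 the replicates placed the strongest summit apart, 278 bp downstream of the 5′ end in replicate 1 and 67 bp in replicate 2. By the same rule, 396 of 7764 genes of this annotated class (ncRNA), 5.10%, had an IDR summit. srpr-3 had a pooled relaxed summit only (48.7, rank 4728), and srpr-2.2 had a summit in replicate 2 alone (63.9, rank 1011). The genes are 81.7% to 99.0% identical in pairs, so reads may be split or misplaced among the copies, and the labels do not say how such reads were handled. The difference between srpr-2.1 and srpr-2.2, a pair 99.0% identical, is therefore uncertain.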
